A study of Homo sapiens with 10 samples.

Results

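A pair of myeloma lines, labelled OCI and H929, are compared here over all 10 mRNA libraries of the series, 5 of each line. Each OCI library was set against the H929 library of the same manipulation of AIMP1, which gave 5 pairs. AIMP1 holds aminoacyl-tRNA synthetases together in a complex and also acts outside the cell as a cytokine. The OCI libraries are the first and second AIMP1 knockdown (knockdown 1 and knockdown 2), AIMP1 overexpression, wild-type cells given AIMP1 protein (protein) and wild-type cells, and the H929 libraries are the same 5. By label, the manipulation is shared within a pair and only the line differs, though the labels do not say whether same-numbered knockdowns used the same reagent. Of 58229 genes in the deposited table of FPKM (fragments scaled by transcript length and library size), the 12872 with a mean of at least 1 FPKM over the 10 libraries were tested. A cell line is 1 culture of 1 patient's tumour, the particular OCI line is not named in the labels, nor do they say whether the libraries of a line came from separate cultures. Spread between libraries may thus be technical. Apart from the knockdowns, a manipulation has 1 library per line, so the p-values below also take in how differently the lines responded to it. None of them measures spread between patients.

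Multiple myeloma is a cancer of plasma cells, the antibody-secreting end stage of the B cell lineage. Plasma cells carry syndecan-1 (SDC1) and B cell maturation antigen (TNFRSF17) on their surface, depend on the transcription factors IRF4, PRDM1 and XBP1, and have shut down much of the B cell programme, including MHC class II genes and PAX5. Myeloma lines are known to differ in their founding translocation, in adhesion molecules and cytokine receptors that tie the cells to marrow stroma, in cancer-testis antigens, and in genes of DNA repair and metabolism.

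AIMP1 itself was read first, because it checks the labels. AIMP1 had 5.03, 2.35, 59.7, 14.4 and 14.3 FPKM in OCI, against 14.2, 3.55, 62.5, 20.3 and 14.5 FPKM in H929. Values run throughout in the order knockdown 1, knockdown 2, overexpression, protein and wild type. The library labelled H929 knockdown 1 stood at its wild-type level, and the other knockdown libraries were below theirs. Differences are given throughout as OCI minus H929 of log2(FPKM + 1), a scale that shrinks differences between low values, with the SE of the limma fit. AIMP1 did not pass the test of the line (-0.47 ± 0.34 SE, limma, adjusted p = 0.382).

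The libraries of both lines carried the plasma cell programme, and some of its genes were higher in OCI. Of 18 plasma cell genes, 16 or 17 reached 1 FPKM in each OCI library and 15 in each H929 library, with summed levels of 4946 to 6887 FPKM in OCI and 4416 to 5708 FPKM in H929. Of 16 plasma cell genes tested, 5 were higher in OCI and 0 lower at an adjusted p under 0.05 (31.2%, against 12.9% of all genes). Their median difference was 0.39. MZB1, 1 of the 5, differed by 1.08 ± 0.20 SE (limma, adjusted p = 0.00773), with no overlap of the lines. The B cell surface gene MS4A1, which encodes CD20, was near 0 in both lines. T cell, myeloid and mature B cell lists summed to at most 65.3 FPKM in any OCI library and at most 59.1 FPKM in any H929 library. The 16 stromal and endothelial markers summed to 859 to 1399 FPKM in OCI and 836 to 1082 FPKM in H929, nearly all of it VIM, which encodes vimentin, and the other 15 to at most 12.4 FPKM in OCI and 12.7 FPKM in H929. Erythroid markers, described below, reached 154 FPKM in OCI. In bulk RNA, fewer cells of a type and less RNA per cell cannot be told apart.

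Among listed translocation genes and D cyclins of myeloma, FGFR3 was near 0 in both lines, and NSD2 and MAF overlapped between the 2 sets of libraries, while the cyclin gene CCND2 and MYC, given below, did not overlap. H929 is known as a line that secretes IgA with a kappa light chain and carries a translocation joining NSD2 and FGFR3 to the immunoglobulin heavy chain locus. FGFR3, a receptor tyrosine kinase, had 0.632, 0.876, 1.13, 0.386 and 0.564 FPKM in OCI, against 0.574, 0.975, 0.241, 1.43 and 0.333 FPKM in H929, so it was near 0 in both. NSD2 had 62.5, 61.9, 68.9, 81.9 and 77.5 FPKM in OCI, against 77.8, 96, 86.1, 101 and 86.7 FPKM in H929. NSD2, a histone methyltransferase, did not differ at the threshold (-0.34 ± 0.14 SE, limma, adjusted p = 0.144). MAF had 70.7, 195, 129.9, 133 and 53.3 FPKM in OCI, against 90.8, 82, 172, 119 and 76.6 FPKM in H929. MAF, a transcription factor activated by another myeloma translocation, was thus high in both lines, overlapped between them, and differed by 0.03 ± 0.28 SE (limma, adjusted p = 0.959). ITGB7, an integrin chain known as a MAF target in myeloma, had 369 to 1192 FPKM in OCI and 554 to 1062 FPKM in H929. The heavy chain gene IGHA1 and the light chain genes IGKC and IGLC1 were all high in both lines, and only IGKC passed the test (0.96 ± 0.21 SE, limma, adjusted p = 0.0158). That call was lost in 8 of 24 alternative settings, where the adjusted p reached 0.0791. The cell cycle inhibitor CDKN2C and its neighbour FAF1 were near 0 in both lines. FGFR3 near 0 and MAF at a high level go against what is known of H929, so OCI and H929 stand below for what the labels say of the libraries.

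**Figure D1:**
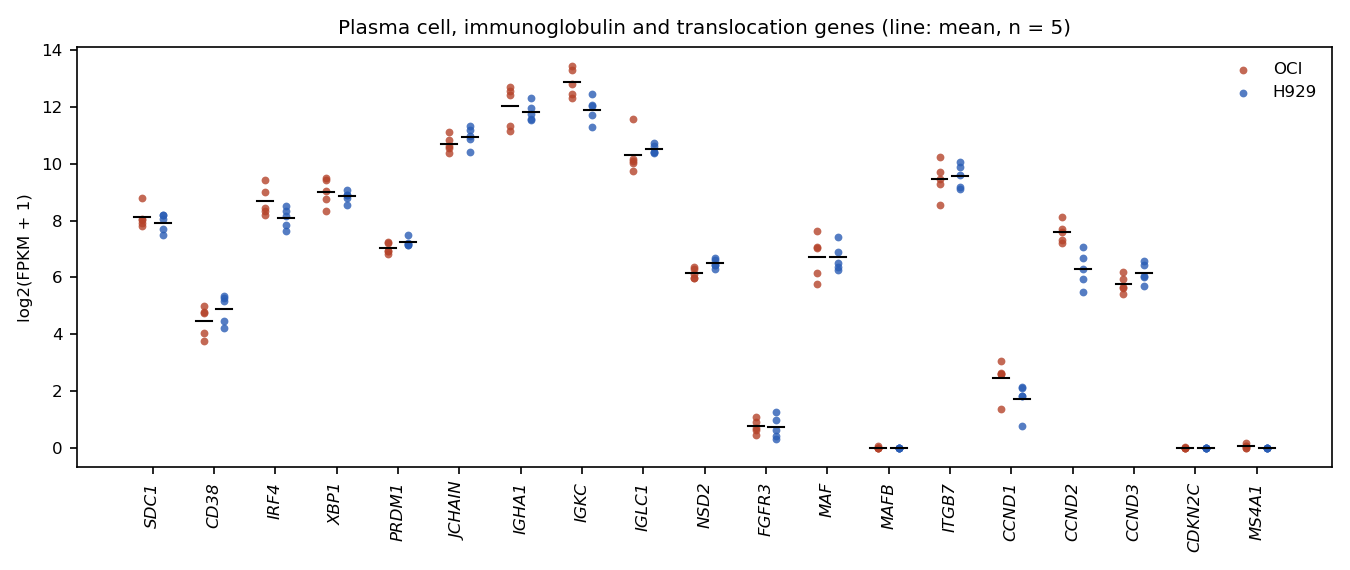
Expression of plasma cell, immunoglobulin, translocation and B cell genes as log2(FPKM + 1) on the vertical axis, with 5 OCI libraries on the left and 5 H929 libraries on the right of each gene and a line at the mean. The points of the 2 lines overlap for MAF, ITGB7, SDC1 and IGHA1, and lie near 0 in both lines for FGFR3, CDKN2C and MS4A1.

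Relative to the deepest library, OCI wild type, sequencing depth ranged between 27.5% and 100% in OCI and between 27.5% and 41.8% in H929, as read from the steps between low FPKM values, and the OCI overexpression library was as shallow as the H929 libraries. Of the 10 libraries, 2 stood apart in low-level markers of other cell types. S100A8, S100A9, LYZ, EPCAM, KRT19 and DCN summed to 10.0 FPKM in OCI knockdown 1 and 18.8 FPKM in OCI protein, and to at most 0.277 FPKM in each of the other 8 libraries. OCI protein also stood apart in its share of short RNA, 49.6% of summed FPKM against 72.2% to 80.7% elsewhere. What depth, the trace markers or the short RNA contribute to the differences between the lines was not tested. Results are therefore also given without the knockdown 1 and protein pairs, a setting chosen after the data were seen, where that changes a call.

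Of the 12872 genes tested, 978 were called higher in OCI (7.6%) and 680 lower (5.28%) in an additive limma model of line and manipulation on log2(FPKM + 1) at an adjusted p under 0.05. Together they were 12.9% of the genes. The split between higher and lower depends on scaling. When each library was rescaled to the same sum over protein-coding genes, 720 were higher and 1248 lower, and the median difference of all tested genes moved by -0.15. Leaving out 1 library moved the counts by over 1.5 times in 6 cases. The counts higher and lower were 490 and 310 without OCI overexpression, 525 and 290 without OCI wild type, 616 and 336 without H929 knockdown 1, 506 and 302 without H929 overexpression, and 536 and 276 without H929 wild type. Without H929 knockdown 2 there were 698 higher and 384 lower. Outside the knockdowns, a library left without its partner drops out of the line difference, because the manipulation is a term of the model. Both overexpression settings thus rest on the same pairs, as do both wild-type settings. Without the knockdown 1 and protein pairs there were 558 and 234. Of the 1658 called genes, 470 were called in each of the 24 alternative settings (other pseudocounts, filters, scalings, model terms or sets of libraries) in which they could be tested, and the genes described below are given by preference from these. Counts for gene lists below are those of the main setting, and lists varied in how many calls stood throughout. These were 4 of 12 for surface antigens, 1 of 8 for lipid genes and 0 of 3 for glycolysis. They were 4 of 6 for cytokine and chemokine receptors and 3 of 4 for cystatins and cathepsins.

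A stricter group describes what separated the lines whatever the manipulation. A gene was counted as held when it was called and differed by at least 1 on the log2 scale in the same direction in each of the 5 pairs. By this rule 272 genes (2.11%) held, 207 higher in OCI (1.61%) and 65 lower (0.505%). Of the 272, 249 were called in every alternative setting in which they could be tested, and low genes could not be tested in all. Without the knockdown 1 and protein pairs 424 genes held over the 3 pairs left, and 255 of them were among the 272. In H929, 106 of the 207 held higher genes were under 1 FPKM in all 5 libraries, whereas 21 of the 65 held lower genes were under 1 FPKM in all 5 OCI libraries. Groups that do not overlap were seen for 1540 genes (12%), 6.22% with OCI above and 5.75% with OCI below. The rule's edge falls among genes such as FN3K, with a smallest pair difference of 1.001, just inside, and NAPSA, at 0.9995, just outside. Pairs varied in how far apart they were. Genes differing by at least 1 made up 10.5% in the knockdown 1 pair, 19.8% in knockdown 2, 16.1% in overexpression, 32% in protein and 10.9% in wild type. Over all tested genes the line took 32.8% of the sum of squares and the manipulation 29.9%. The rest, which neither term took up, was the largest share at 37.3%.

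**Figure D2:**
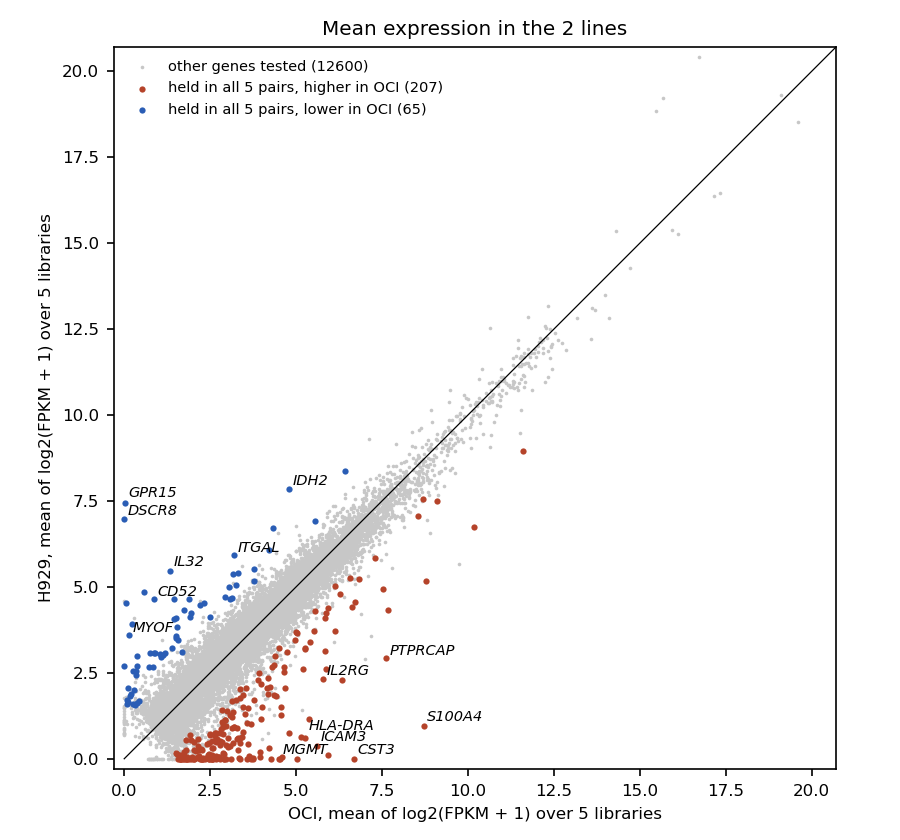
Mean log2(FPKM + 1) of each tested gene over the 5 OCI libraries (horizontal axis) and the 5 H929 libraries (vertical axis), with the line of equality. The 207 genes held higher in OCI lie below the line, many of them at 0 in H929, and the 65 held lower lie above it.

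S100A4, CST3, MGMT, GPR15 and IL32 are taken as 5 markers of the lines, chosen with their values known. Others, such as DSCR8 and ICAM3, differed by more than MGMT and IL32. All 5 held, and each was called in every alternative setting. S100A4 encodes a calcium-binding protein of the S100 family linked to cell motility. S100A4 had 476, 407, 326, 413 and 491 FPKM in OCI, against 1.11, 0.777, 0.7, 1.33 and 0.821 FPKM in H929. The lines did not overlap, and the difference was 7.76 ± 0.16 SE (limma, adjusted p = 5.23e-09), with pair differences of 7.48 to 8.08. CST3 encodes cystatin C, a secreted inhibitor of cysteine proteases. CST3 had 74, 107, 84.9, 149.7 and 105 FPKM in OCI and was listed at 0 in all 5 H929 libraries. MGMT, the DNA repair enzyme that removes alkyl groups from guanine and sets sensitivity to alkylating drugs, showed the same on and off pattern. MGMT had 16.2, 23.5, 21.6, 33 and 17.2 FPKM in OCI and was listed at 0 in all 5 H929 libraries. With H929 listed at 0 no ratio is given, and both genes passed the test (limma, adjusted p = 5.69e-08 for CST3 and limma, adjusted p = 3.18e-06 for MGMT).

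GPR15 and IL32 ran the other way. GPR15 encodes a chemoattractant receptor that directs lymphocytes to the gut. GPR15 had 0.0495, 0, 0, 0.053 and 0 FPKM in OCI, against 211, 133, 214, 217 and 123 FPKM in H929. It was at or near 0 in every OCI library, and its lowest H929 library was wild type (-7.42 ± 0.20 SE, limma, adjusted p = 3.31e-08, pair differences of -7.75 to -6.95). IL32 encodes a secreted proinflammatory cytokine. IL32 had 1.48, 2.93, 0.251, 5.65 and 0.22 FPKM in OCI, against 64.4, 42.1, 25.9, 87.2 and 23.8 FPKM in H929. The highest OCI library, protein, was below the lowest H929 library, wild type, and the difference was -4.14 ± 0.21 SE (limma, adjusted p = 4.42e-06). In both lines the IL32 level was highest in the protein library.

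**Figure D3:**
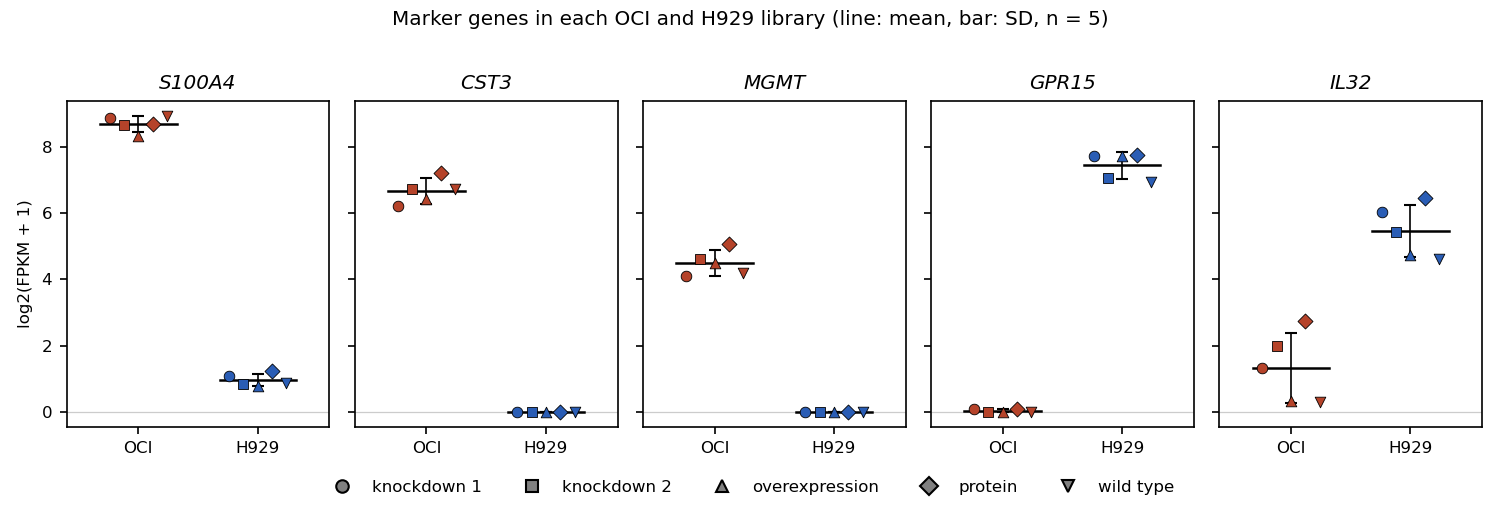
Level of the 5 marker genes as log2(FPKM + 1) in each of 5 OCI libraries (left) and 5 H929 libraries (right) per panel, with symbols for the manipulation, a line at the mean and a bar for 1 SD. S100A4, CST3 and MGMT are high in all OCI libraries, and GPR15 and IL32 in all H929 libraries.

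The sequences just upstream of these 5 genes differ in CpG content, which is shown because promoters of on and off genes are often described by it. The 250 bases before the first start listed in RefSeq (GRCh38.p14) lie at chr1:153545807-153546056 on the minus strand for S100A4, chr20:23637956-23638205 on the minus strand for CST3 and chr10:129466991-129467240 on the plus strand for MGMT. They lie at chr3:98531728-98531977 for GPR15 and chr16:3065153-3065402 for IL32, both on the plus strand. Capitals mark the dinucleotide CG, which reads the same on both strands. No methylation was measured in these libraries.
S100A4: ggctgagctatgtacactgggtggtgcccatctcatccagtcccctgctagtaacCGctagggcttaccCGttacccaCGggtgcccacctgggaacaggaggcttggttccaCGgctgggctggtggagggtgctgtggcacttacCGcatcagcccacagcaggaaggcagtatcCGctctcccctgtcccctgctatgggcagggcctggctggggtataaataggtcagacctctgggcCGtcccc
CST3: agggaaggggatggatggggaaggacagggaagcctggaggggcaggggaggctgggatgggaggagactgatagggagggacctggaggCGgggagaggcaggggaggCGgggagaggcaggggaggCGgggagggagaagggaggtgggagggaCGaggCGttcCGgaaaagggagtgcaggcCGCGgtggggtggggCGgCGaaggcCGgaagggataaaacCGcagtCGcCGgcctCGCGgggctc
MGMT: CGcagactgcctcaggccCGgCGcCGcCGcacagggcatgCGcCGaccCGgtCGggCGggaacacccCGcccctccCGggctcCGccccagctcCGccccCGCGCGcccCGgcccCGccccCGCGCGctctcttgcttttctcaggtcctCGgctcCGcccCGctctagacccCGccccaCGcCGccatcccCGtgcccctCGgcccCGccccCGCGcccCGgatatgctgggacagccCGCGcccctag
GPR15: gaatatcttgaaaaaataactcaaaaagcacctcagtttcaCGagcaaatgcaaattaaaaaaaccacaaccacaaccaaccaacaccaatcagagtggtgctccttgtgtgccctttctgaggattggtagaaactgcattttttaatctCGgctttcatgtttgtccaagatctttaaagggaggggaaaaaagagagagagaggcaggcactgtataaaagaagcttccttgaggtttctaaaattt
IL32: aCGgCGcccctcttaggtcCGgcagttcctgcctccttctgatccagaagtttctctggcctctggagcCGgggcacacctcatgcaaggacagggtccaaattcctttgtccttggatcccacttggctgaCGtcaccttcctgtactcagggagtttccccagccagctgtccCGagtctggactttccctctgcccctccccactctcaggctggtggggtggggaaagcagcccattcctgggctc
The MGMT window holds 36 CG, CST3 16, S100A4 7, IL32 6 and GPR15 2. Of 10804 tested protein-coding genes 8935 had a promoter in the table, with a median of 21 CG, and 87.7% of these held at least 10. For all held genes higher or lower the comparison is void, since fewer than 80% of them had a promoter in the table (78.3% of those higher and 72.4% of those lower). The same holds for held lower genes under 1 FPKM in all OCI libraries (68.8%). Of 89 held higher protein-coding genes under 1 FPKM in all H929 libraries, 82.0% had a promoter in the table. Their median was 19 CG, and 84.9% of these promoters held at least 10.

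Surface, adhesion and receptor genes moved in both directions. Of 57 surface antigens 37 were tested, and 5 were higher and 7 lower in OCI (32.4% called, against 12.9% of all genes), with a median difference of 0.12. Of 24 tested adhesion genes 3 were higher and 4 lower (29.2%), and of 35 tested cytokine and chemokine receptors 2 were higher and 4 lower (17.1%). ICAM3, an adhesion molecule of resting leukocytes that binds the integrin LFA-1, was on in OCI and off in H929. ICAM3 had 31, 59.3, 59.1, 69.6 and 32.5 FPKM in OCI, against 0.53, 0.422, 0.186, 0.172 and 0.199 FPKM in H929. The lowest OCI library, knockdown 1, was far above the highest H929 library (5.23 ± 0.25 SE, limma, adjusted p = 3.18e-06). ITGAL, the alpha chain of LFA-1, ran the opposite way. ITGAL had 7.11, 6.73, 2.17, 31.2 and 9.12 FPKM in OCI, against 75.9, 63.7, 30.7, 94.9 and 51.8 FPKM in H929. Only the OCI protein library, at 31.2 FPKM, reached the level of an H929 library, and it passed the lowest one (-2.72 ± 0.25 SE, limma, adjusted p = 0.000235). ITGB2, the beta chain that ITGAL pairs with, averaged under the limit for testing, at no more than 0.486 FPKM in OCI and 1.35 FPKM in H929. ITGA4, the alpha chain of the marrow-homing integrin VLA-4, was also lower in OCI. ITGA4 had 87.8, 76.2, 48.4, 54.5 and 69 FPKM in OCI, against 145, 188, 127, 215 and 146 FPKM in H929. No OCI library reached an H929 library (-1.28 ± 0.18 SE, limma, adjusted p = 0.00222). Its partner ITGB1 missed the threshold (-0.69 ± 0.22 SE, limma, adjusted p = 0.0705).

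Receptors for cytokines divided in the same way. IL2RG, the common gamma chain shared by receptors for several interleukins, was higher in OCI. IL2RG had 51.3, 38.3, 45.2, 168 and 31.6 FPKM in OCI, against 2.28, 2.61, 3.18, 17.5 and 2.56 FPKM in H929. The protein library was the highest of each line, and within every pair OCI was higher (3.46 ± 0.17 SE, limma, adjusted p = 4.24e-06). IFNAR2, a chain of the type I interferon receptor, was lower. IFNAR2 had 43.8, 57.7, 38.7, 44.3 and 47.5 FPKM in OCI, against 120.1, 130.3, 126, 108 and 116 FPKM in H929. The highest OCI library was below the lowest H929 library (-1.36 ± 0.15 SE, limma, adjusted p = 0.000613). IL10RA, the binding chain of the interleukin 10 receptor, was also lower (-1.37 ± 0.18 SE, limma, adjusted p = 0.00164).

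Several antigens used as targets of antibody or cell therapy were among them. SLAMF7, the target of elotuzumab, was higher in OCI. SLAMF7 had 3.49, 6.15, 8.25, 34 and 7.42 FPKM in OCI, against 0.438, 0.84, 0.99, 0.18 and 0.195 FPKM in H929. It was below 1 FPKM in every H929 library (2.71 ± 0.42 SE, limma, adjusted p = 0.00337). CD52, the target of alemtuzumab, was lower. CD52 had 2.5, 0.997, 0, 0.815 and 0.577 FPKM in OCI, against 21.4, 32.9, 9.24, 39.1 and 29.1 FPKM in H929. The difference was -3.77 ± 0.27 SE (limma, adjusted p = 3.45e-05). GPRC5D and TNFRSF17, which encodes BCMA, were higher in OCI in all 5 pairs, with pair differences of 0.84 to 4.50 and pair differences of 0.46 to 3.28. For GPRC5D the call (2.23 ± 0.43 SE, limma, adjusted p = 0.00997) was lost when genes were not filtered (adjusted p = 0.0663). For TNFRSF17 (1.46 ± 0.34 SE, limma, adjusted p = 0.0211) it was lost in 5 of 24 settings, including without OCI wild type (1.46, adjusted p = 0.0627), without H929 knockdown 2 (1.46, adjusted p = 0.0503), without H929 overexpression (1.61, adjusted p = 0.0509) and without H929 wild type (1.46, adjusted p = 0.0679). Both wild-type settings drop the same pair from the line difference. SDC1 and CD38, the target of daratumumab, did not pass the test (0.20 ± 0.20 SE, limma, adjusted p = 0.559 and -0.45 ± 0.29 SE, limma, adjusted p = 0.328). PTPRCAP, a protein associated with CD45, belongs to no list here but had one of the largest smallest pair differences. PTPRCAP had 244, 145, 213, 167 and 218 FPKM in OCI, against 14.9, 1.68, 4.29, 9.84 and 9.15 FPKM in H929. No library of one line came near the other line (4.69 ± 0.43 SE, limma, adjusted p = 0.000202).

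MHC class II genes present peptides to helper T cells and are usually silenced in plasma cells. Of 13 listed, 8 were tested and all 8 were called higher in OCI, with a median of 2.2, but their level varied widely among OCI libraries. Members near 0 in H929 could pass the filter only through OCI, so the count of tested members is not read as support. HLA-DRA had 69.6, 104, 85.1, 23.3 and 4.43 FPKM in OCI, against 0, 0.464, 1.23, 0.89 and 0.249 FPKM in H929. HLA-DRA, the alpha chain of HLA-DR, was thus lowest in OCI wild type and highest in the knockdown and overexpression libraries, and still above every H929 library (4.68 ± 0.53 SE, limma, adjusted p = 0.000651, pair differences of 2.12 to 6.16). HLA-DPA1 was at 0.847 FPKM in OCI wild type, inside the H929 range of 0 to 1.83 FPKM. Its call (3.43 ± 0.62 SE, limma, adjusted p = 0.00732) was lost without a filter (adjusted p = 0.0577). HLA-DMA, which helps load peptides, differed by 1.76 ± 0.32 SE (limma, adjusted p = 0.00735). HLA-DRA and HLA-DMA were called in every setting, and 3 of the 8 were called without the knockdown 1 and protein pairs. Leaving out any 1 library left 6 to 8 called. CIITA, the master activator of these genes, differed by 0.93 ± 0.23 SE (limma, adjusted p = 0.0277), a call lost in 10 of 24 settings in which the adjusted p reached 0.201. Of 15 tested MHC class I genes PSMB9 alone was called (0.84 ± 0.18 SE, limma, adjusted p = 0.0158), and that call was lost in 6 of 24 settings with an adjusted p of up to 0.0749. HLA-B differed by -0.05 ± 0.18 SE (limma, adjusted p = 0.881).

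Interferon-stimulated genes were split, 3 higher and 3 lower of 23 tested (26.1% called, against 12.9% of all genes). APOBEC3G, a cytidine deaminase that restricts retroviruses, was higher in OCI. APOBEC3G had 8.22, 12.2, 3.76, 4.11 and 4.33 FPKM in OCI, against 0.175, 0.399, 0.265, 0.738 and 0.149 FPKM in H929. GBP2, a guanylate-binding protein induced by interferon, was lower. GBP2 had 2.48, 3.14, 6.77, 2.9 and 1.6 FPKM in OCI, against 9.87, 8.53, 13.2, 17 and 5.66 FPKM in H929. The lines did not overlap for APOBEC3G (2.38 ± 0.29 SE, limma, adjusted p = 0.000933), and for GBP2 they overlapped through OCI overexpression and H929 wild type (-1.46 ± 0.22 SE, limma, adjusted p = 0.00275). APOBEC3B, known as a source of mutations in cancer, differed by -0.95 ± 0.17 SE (limma, adjusted p = 0.00603), a call lost with no term for the manipulation (adjusted p = 0.0526).

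Secreted ligands, S100 proteins and annexins moved in both directions. Of 18 tested secreted ligands 2 were higher and 2 lower (22.2% called, against 12.9% of all genes), and of 13 tested S100 and annexin genes 4 were higher and 1 lower (38.5%). S100A6, another calcium-binding S100 protein, was higher in OCI. S100A6 had 289, 457, 275, 482 and 431 FPKM in OCI, against 129, 149, 117, 224 and 82 FPKM in H929. The groups were separate (1.49 ± 0.22 SE, limma, adjusted p = 0.00245), and both lines expressed S100A6. S100A11 and S100A13 differed by 1.17 ± 0.22 SE (limma, adjusted p = 0.00854) and -0.12 ± 0.19 SE (limma, adjusted p = 0.72), and the call of S100A11 was lost without the knockdown 1 and protein pairs (0.82, adjusted p = 0.0973). ANXA2, a membrane-binding annexin, differed by 0.01 ± 0.16 SE (limma, adjusted p = 0.966). PTN, which encodes the growth factor pleiotrophin, differed by -1.18 ± 0.22 SE (limma, adjusted p = 0.00801).

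Among cystatins and cathepsins, 3 of 14 tested were higher and 1 lower (28.6% called). CTSO, a lysosomal cysteine protease, differed by 1.77 ± 0.26 SE (limma, adjusted p = 0.00258), and CTSW, a cathepsin of cytotoxic lymphocytes, by -1.72 ± 0.23 SE (limma, adjusted p = 0.00165). CTSB and CTSC, proteases of the class that cystatin C inhibits, did not pass the test (-0.61 ± 0.36 SE, limma, adjusted p = 0.289 and -0.19 ± 0.16 SE, limma, adjusted p = 0.44). COL6A3, a chain of collagen VI, was low in OCI. COL6A3 had 0.182, 0.51, 1.42, 0.52 and 0.0696 FPKM in OCI, against 34, 33, 16.1, 31 and 28.7 FPKM in H929. H929 overexpression was the lowest H929 library and still above every OCI library (-4.28 ± 0.29 SE, limma, adjusted p = 2.93e-05).

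Most plasma cell transcription factors did not pass the test, while a few other factors did. Of 26 tested B cell and plasma cell factors 3 were higher and 0 lower in limma (11.5% called, close to the 12.9% of all genes), and 8 and 1 had an unadjusted p under 0.05. XBP1, PRDM1 and IRF4 did not pass the test (0.17 ± 0.17 SE, limma, adjusted p = 0.56, -0.21 ± 0.16 SE, limma, adjusted p = 0.407 and 0.59 ± 0.25 SE, limma, adjusted p = 0.144). MYC, the growth regulator that drives late stages of myeloma, was higher in OCI. MYC had 394, 633, 642, 783 and 435 FPKM in OCI, against 260.0, 248, 195, 131 and 215 FPKM in H929. Every OCI library was above every H929 library (1.45 ± 0.26 SE, limma, adjusted p = 0.00668), and the pair difference was smallest in knockdown 1 and largest in protein. PAX5, the factor that maintains B cell identity, was present at a low level in OCI. PAX5 had 2.46, 1.22, 1.34, 2.2 and 4.36 FPKM in OCI and was listed at 0 in all 5 H929 libraries. It passed the test (limma, adjusted p = 0.00419), but not without the knockdown 1 and protein pairs (adjusted p = 0.0649). Of 33 other tested factors 4 were higher and 2 lower (18.2%). LEF1, a mediator of Wnt signals, held. LEF1 had 31.7, 36.2, 22.6, 43.4 and 24.1 FPKM in OCI, against 14.3, 12.8, 9.85, 12.6 and 10.6 FPKM in H929. TCF4, an E protein of lymphoid cells, differed by 1.51 ± 0.24 SE (limma, adjusted p = 0.00387) with no overlap of the lines. AHR, the receptor for dioxin and tryptophan products, was lower in OCI. AHR had 1.97, 1.31, 2.56, 5.52 and 2.71 FPKM in OCI, against 7.17, 6.07, 13.9, 8.46 and 8.94 FPKM in H929. The difference was -1.42 ± 0.24 SE (limma, adjusted p = 0.00497).

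Cyclins and cell cycle inhibitors differed less surely. CCND2, the cyclin D that MAF activates in myeloma, was 147 to 276 FPKM in OCI and 44.3 to 132 FPKM in H929 (1.29 ± 0.28 SE, limma, adjusted p = 0.0165). In limma the call was lost in 6 of 24 settings, among them without OCI overexpression (1.21, adjusted p = 0.0704), without OCI protein (1.06, adjusted p = 0.0516), without H929 overexpression (1.21, adjusted p = 0.0723), without H929 protein (1.06, adjusted p = 0.0511) and without the knockdown 1 and protein pairs (0.8, adjusted p = 0.154). Leaving out either library of the overexpression or protein pair drops that pair from the line difference, so these settings are not separate checks. CCND1 and CCND3 did not pass the test (0.71 ± 0.38 SE, limma, adjusted p = 0.237 and -0.39 ± 0.21 SE, limma, adjusted p = 0.235). Of 20 tested tumour suppressors 4 were higher and 1 lower (25% called). CDKN1A, which encodes the cell cycle inhibitor p21, held (1.81 ± 0.37 SE, limma, adjusted p = 0.0127), a call lost without a filter (adjusted p = 0.0721). TRAF3, a brake on the noncanonical NF-kappa-B pathway that is often lost in myeloma, was lower in OCI. TRAF3 had 13.3, 9.89, 10.2, 14.7 and 9.81 FPKM in OCI, against 23, 22.3, 16.7, 29.4 and 25.9 FPKM in H929. The highest OCI library was below the lowest H929 library (-0.95 ± 0.17 SE, limma, adjusted p = 0.00655).

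Among BCL2 family genes, which set the threshold for apoptosis, 4 of 13 tested were higher in OCI and 0 lower in limma (30.8% called, against 12.9% of all genes), and 6 and 0 had an unadjusted p under 0.05. BIK, a BH3-only promoter of apoptosis, was expressed in OCI and low in H929. BIK had 6.63, 7.87, 8.7, 7.65 and 3.92 FPKM in OCI, against 0.137, 0.413, 0.306, 0.759 and 0.122 FPKM in H929. It held and was called in all 23 settings in which it could be tested (2.54 ± 0.22 SE, limma, adjusted p = 0.00013). The survival genes MCL1, BCL2 and BCL2L1 did not pass the test (-0.08 ± 0.15 SE, limma, adjusted p = 0.756, 0.88 ± 0.34 SE, limma, adjusted p = 0.114 and 0.47 ± 0.22 SE, limma, adjusted p = 0.183). In RAS and kinase signalling 2 of 29 tested were higher and 3 lower (17.2%). RASSF4, a RAS-binding tumour suppressor, was expressed in OCI. RASSF4 had 13, 32.4, 18.5, 6.6 and 3.93 FPKM in OCI, against 0, 0, 0, 0.0622 and 0 FPKM in H929. H929 was at 0 in 4 libraries and at 0.0622 FPKM in the protein library (3.66 ± 0.39 SE, limma, adjusted p = 0.000436). FGR, a SRC family kinase of myeloid and B cells, differed by -1.72 ± 0.31 SE (limma, adjusted p = 0.00661).

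Of 122 tested DNA repair genes in 5 lists, 12 were called (9.84%, against 12.9% of all genes). Of 23 tested genes of direct reversal and base excision repair 2 were called, MGMT and APEX1, both higher in OCI. Of 9 tested mismatch repair genes 0 were called by limma, and 3 of them, all lower, had an unadjusted p under 0.05. Of 22 tested nucleotide excision repair genes 0 were called, and 2 and 3 passed that unadjusted limit. APEX1, the main nuclease at abasic sites, differed by 0.54 ± 0.13 SE (limma, adjusted p = 0.0275), a call lost in 9 of 24 settings in which the adjusted p reached 0.154. In homologous recombination and the Fanconi anaemia pathway, which repairs crosslinks, 2 of 37 were higher and 4 lower (16.2%). FANCF, an adaptor of the Fanconi core complex, held. FANCF had 11, 12.5, 10.2, 9.21 and 10.5 FPKM in OCI, against 2.95, 3.65, 3.69, 2.03 and 3.61 FPKM in H929. Every OCI library was above every H929 library (1.49 ± 0.18 SE, limma, adjusted p = 0.000888). FANCD2, the protein that the core complex ubiquitinates, was lower in OCI. FANCD2 had 9.68, 11.6, 13.5, 9.02 and 12.7 FPKM in OCI, against 22.5, 24.4, 23, 40.4 and 26.7 FPKM in H929. OCI stayed below H929 in all libraries (-1.19 ± 0.21 SE, limma, adjusted p = 0.00596). In end joining and damage signalling 2 of 31 were higher and 2 lower (12.9%), and no member was called in every setting. SLFN11, which sensitises cells to DNA-damaging drugs, differed by 1.43 ± 0.30 SE (limma, adjusted p = 0.0143), a call lost in 6 of 24 settings with an adjusted p of up to 0.115. ATM did not pass the test (-0.82 ± 0.37 SE, limma, adjusted p = 0.173).

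Central carbon metabolism differed in single enzymes. Of 28 tested genes of the TCA cycle and its inflows 1 was higher and 3 lower (14.3% called, against 12.9% of all genes). IDH2, the mitochondrial NADP-dependent isocitrate dehydrogenase, was lower in OCI. IDH2 had 26.7, 52, 49, 11.6 and 16.1 FPKM in OCI, against 198, 282, 214, 302 and 182 FPKM in H929. The lines did not overlap (-3.07 ± 0.34 SE, limma, adjusted p = 0.000583, pair differences of -4.58 to -2.10), whereas its cytosolic counterpart IDH1 and the NAD-dependent IDH3A did not pass the test (-0.39 ± 0.24 SE, limma, adjusted p = 0.317 and -0.50 ± 0.17 SE, limma, adjusted p = 0.0866). GLUL, glutamine synthetase, was expressed in OCI. GLUL had 7.56, 15.8, 18.1, 3.17 and 1.49 FPKM in OCI and was listed at 0 in all 5 H929 libraries. It was lowest in OCI wild type and passed the test (limma, adjusted p = 0.00215). Glycolysis had 1 higher and 2 lower of 29 tested (10.3%), and GAPDH differed by 0.00 ± 0.20 SE, limma, adjusted p = 1.

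Amino acid enzymes had 4 higher and 3 lower of 34 tested (20.6%). ASS1, the arginine-making argininosuccinate synthase, was higher in OCI but uneven. ASS1 had 3.8, 82.6, 4.71, 94.9 and 8.67 FPKM in OCI, against 0.0726, 0.35, 0, 1.01 and 0 FPKM in H929. The knockdown 2 and protein libraries of OCI stood far above the other 3, and every OCI library was above every H929 library (3.90 ± 0.69 SE, limma, adjusted p = 0.00657). In limma the call was lost without a filter (adjusted p = 0.0561). BCAT1, a branched-chain aminotransferase, had 1.86 to 17.9 FPKM in OCI and at most 0.0455 FPKM in H929 (2.48 ± 0.37 SE, limma, adjusted p = 0.00279). QPRT, an enzyme of NAD synthesis from tryptophan, had 21 to 47.5 FPKM in OCI and 6.28 to 14.1 FPKM in H929 (1.51 ± 0.21 SE, limma, adjusted p = 0.00196). ASNS, PSAT1 and PSPH, genes of asparagine and serine synthesis, were highest in the same 2 OCI libraries as ASS1 and did not pass the test (0.97 ± 0.48 SE, limma, adjusted p = 0.204, 0.98 ± 0.32 SE, limma, adjusted p = 0.0706 and 0.69 ± 0.29 SE, limma, adjusted p = 0.151).

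Lipid, nucleotide and detoxification genes gave smaller differences. Of 43 tested lipid genes 5 were higher and 3 lower (18.6%). FADS1, a fatty acid desaturase, held. FADS1 had 9.7, 14.6, 18.8, 15.4 and 31.5 FPKM in OCI, against 2.61, 3.18, 3.86, 3.41 and 2.7 FPKM in H929. Every OCI library exceeded every H929 library (2.11 ± 0.25 SE, limma, adjusted p = 0.000736). Of 33 tested nucleotide genes 3 were higher and 4 lower (21.2%). APRT, which salvages adenine, and NME4, a mitochondrial nucleoside diphosphate kinase, were higher in OCI (1.19 ± 0.15 SE, limma, adjusted p = 0.00127 and 1.24 ± 0.18 SE, limma, adjusted p = 0.00245). RRM2, the small subunit of ribonucleotide reductase, was lower (-1.13 ± 0.22 SE, limma, adjusted p = 0.0106). It had 227 to 504 FPKM in OCI and 604 to 798 FPKM in H929. Of 39 tested glutathione and xenobiotic genes 3 were higher and 4 lower (17.9%), and GSTM1, a glutathione transferase with close relatives among which reads could be split, differed by 1.18 ± 0.17 SE (limma, adjusted p = 0.00236). Of 22 reference genes often taken as constant 2 were higher and 3 lower (22.7% called, against 12.9% of all genes), and REEP5 fell by 1.14 ± 0.18 SE (limma, adjusted p = 0.0033).

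**Figure D4:**
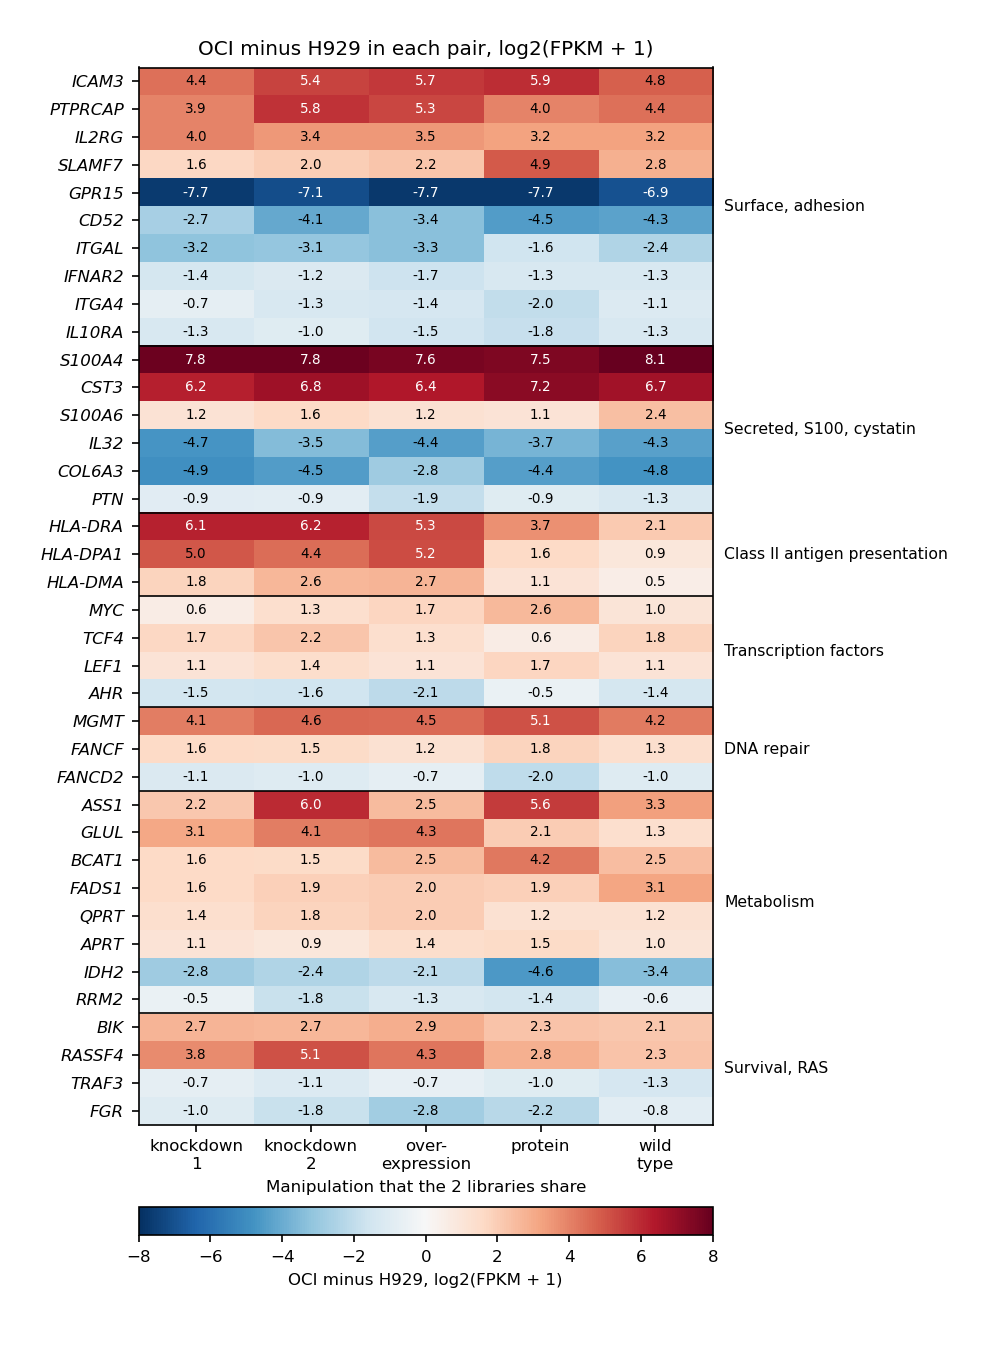
Difference of log2(FPKM + 1), OCI minus H929, for genes named in the text (rows, grouped by role) in each of the 5 pairs (columns), with the value printed in each cell. Each row shown has the same sign in all 5 pairs, and for genes listed at 0 in H929, such as CST3 and MGMT, the size depends on the pseudocount of 1.

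Genes outside the lists completed the on and off group. By the rule of at least 10 FPKM in all 5 libraries of one line and under 1 FPKM in all 5 of the other, 8 genes were on in OCI (0.0622% of genes tested) and 2 in H929 (0.0155%). Those on in OCI were CST3, MGMT, ICAM3, NLRP2, MRFAP1L1, ZNF544, H2BC13 and H2AC16, and those on in H929 were GPR15 and DSCR8. NLRP2 belongs to the NOD-like receptor family. NLRP2 had 15.5, 10.3, 14.6, 11.8 and 10.7 FPKM in OCI, against 0, 0.122, 0, 0 and 0 FPKM in H929. MRFAP1L1 had 20.5, 19.5, 14.4, 21.4 and 17.3 FPKM in OCI and was listed at 0 in all 5 H929 libraries. The histone genes H2BC13 and H2AC16 have near-identical copies elsewhere, so their levels are uncertain. Histone mRNA also largely lacks a poly(A) tail, and the labels do not say whether the libraries were made by that tail. JMJD8, a jumonji domain protein, was low rather than off in H929. JMJD8 had 84.7, 49.5, 68.9, 109.8 and 102 FPKM in OCI, against 2.68, 3.45, 5, 3.92 and 5.1 FPKM in H929. The groups were far apart (4.03 ± 0.21 SE, limma, adjusted p = 4.33e-06). IFTAP, which associates with intraflagellar transport, had 8.95 to 19.2 FPKM in OCI and at most 0.159 FPKM in H929 (3.91 ± 0.21 SE, limma, adjusted p = 6.35e-06).

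Some transcripts known from testis or placenta were present in H929 and low in OCI. Of 6 tested cancer-testis antigens 0 were higher and 1 was lower (16.7%, against 12.9% of all genes), with a median difference of 0.32. DSCR8 and its neighbour DSCR4, transcripts of the Down syndrome region chosen after their values were seen, were listed at 0 in all OCI libraries. DSCR8 had 95.1, 118, 142, 258 and 75.3 FPKM in H929, and DSCR4 had 4.04, 5.9, 5.53, 5.89 and 6.01 FPKM. The cancer-testis antigen called was MAGEA6. MAGEA6 had 0.166, 0.285, 0.219, 0 and 0.168 FPKM in OCI, against 14.3, 15.4, 12.8, 9.04 and 21.9 FPKM in H929. All H929 libraries were above all OCI libraries (-3.70 ± 0.21 SE, limma, adjusted p = 7.77e-06). Its near-identical copy MAGEA3 was expressed in both and did not pass the test (-0.13 ± 0.21 SE, limma, adjusted p = 0.736), so reads could have been split between them. TEX19, a germ cell gene, was at most 5.59 FPKM in OCI, against 29.2 to 44.3 FPKM in 4 H929 libraries and 4.78 FPKM in H929 wild type (-3.22 ± 0.49 SE, limma, adjusted p = 0.00294). MYOF, a membrane repair protein of the ferlin family, had at most 0.231 FPKM in OCI and 5.67 to 15.3 FPKM in H929 (-3.45 ± 0.24 SE, limma, adjusted p = 3.4e-05). NCR3, an activating receptor of natural killer cells, differed by -2.22 ± 0.20 SE (limma, adjusted p = 0.000198), the receptor GPR157 by -2.29 ± 0.21 SE (limma, adjusted p = 0.000202), the phospholipase LIPH by -2.25 ± 0.22 SE (limma, adjusted p = 0.000273), and the cyclic AMP phosphodiesterase PDE4D by -2.19 ± 0.21 SE (limma, adjusted p = 0.00026).

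Single markers of other lineages also differed. HBE1, embryonic epsilon globin, was present in every OCI library. HBE1 had 22.8, 35.9, 112, 11.4 and 4.34 FPKM in OCI and was listed at 0 in all 5 H929 libraries. HBD, delta globin, was also higher (2.36 ± 0.44 SE, limma, adjusted p = 0.00833), a call lost without a filter (adjusted p = 0.055) and without the knockdown 1 and protein pairs (adjusted p = 0.0501). HBD had 1.94, 0.719, 18.8, 6.61 and 4.4 FPKM in OCI, against 0, 0, 0, 0 and 0.162 FPKM in H929. GATA1, the erythroid master factor, was listed at 0 in all 10 libraries, whereas GATA2, a factor of blood progenitors, had 1.1 to 2.36 FPKM in OCI and was listed at 0 in all 5 H929 libraries. Of 21 erythroid and megakaryocyte markers 11 to 14 were listed at 0 in an OCI library and 18 or 19 in an H929 library, with sums of 21.5 to 154 FPKM in OCI and 11 to 13.3 FPKM in H929. KRT18, a keratin of simple epithelia, held. KRT18 had 28.4, 23, 13.7, 10 and 16.8 FPKM in OCI, against 3.77, 2.88, 1.96, 3.12 and 2.15 FPKM in H929. It was 13.7 to 23 FPKM in the 3 OCI libraries in which EPCAM was at most 0.098 FPKM and KRT19 was listed at 0 (2.30 ± 0.22 SE, limma, adjusted p = 0.000273). PDGFRB, a growth factor receptor of pericytes and fibroblasts, was lower in OCI. PDGFRB had 0.287, 1.35, 0.854, 0.741 and 0.304 FPKM in OCI, against 5.34, 6.87, 4.87, 6.99 and 3.62 FPKM in H929. The difference was -1.95 ± 0.24 SE (limma, adjusted p = 0.000953). Of the 16 stromal and endothelial markers, 1 to 5 reached 1 FPKM in an OCI library and 3 to 5 in an H929 library.

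Zinc finger genes were the clearest case of neighbours moving together, a grouping noticed in the values and therefore described without a test. Genes of this kind, many of them KRAB repressors of transposable elements, lie in clusters of relatives. Among all stretches of 25 neighbouring tested protein-coding genes, in GENCODE 29 order, the stretch from U2AF2 to ZNF586 had the highest median difference, 1.35, with all 25 fitted differences above 0. It held 21 genes named ZNF, and 15 of its 25 genes were called higher. Of these, 12 were called in every setting in which they could be tested, which for ZNF550 was 17 of 24. In the whole set 278 ZNF genes were tested, of which 57 were higher and 3 lower in OCI (20.5% higher, against 7.6% of all genes). Inside the stretch 14 of 21 were higher and 9 held. Outside it 43 of 257 were higher (16.7%) and 3 lower. Members near 0 in H929 could pass the filter only through OCI, and the stretch was picked for its median. These counts and shares are therefore not read as support. Without the knockdown 1 and protein pairs 9 of 19 tested were higher inside the stretch and 23 of 254 outside it.

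Of the 15 genes called in the stretch, 6 were under 0.2 FPKM in all 5 H929 libraries and the other 9 were detected in H929. ZNF530 had 10.7, 10.8, 9.46, 18.9 and 7.4 FPKM in OCI and was listed at 0 in all 5 H929 libraries. ZNF772 had 4.93, 4.14, 1.98, 5.8 and 2.43 FPKM in OCI, against 0, 0, 0.0212, 0 and 0 FPKM in H929. ZNF586 had 5.83, 7.36, 7.02, 4.49 and 4.61 FPKM in OCI, against 0, 0.0549, 0, 0 and 0.147 FPKM in H929. All 3 were near 0 in each H929 library, and no OCI library overlapped with H929. ZNF264, ZNF550 and ZNF671 were also listed at 0 in all 5 H929 libraries, at 1.92 to 14, 1.62 to 2.42 and 1.27 to 6.02 FPKM in OCI. ZNF773, ZNF543 and ZNF805 were low rather than absent in H929 (1.86 ± 0.24 SE, limma, adjusted p = 0.00124, 1.53 ± 0.23 SE, limma, adjusted p = 0.00295 and 1.23 ± 0.21 SE, limma, adjusted p = 0.00504), as were ZNF776, ZNF551, ZNF416, ZNF134 and TRAPPC2B, which reached 1.12, 1.46, 1.35, 2.89 and 1.14 FPKM in their highest H929 library, and the call of ZNF805 was lost without the knockdown 1 and protein pairs (adjusted p = 0.0718). ZNF787 was well expressed in both, at 39.6 to 72.9 FPKM in OCI and 20.1 to 34.3 FPKM in H929. Neighbours in between did not pass the test, among them ZNF17 (0.15 ± 0.24 SE, limma, adjusted p = 0.71) and ZNF749 (0.34 ± 0.22 SE, limma, adjusted p = 0.339). ZNF544, beyond the end of the stretch in this count of neighbours, was on in OCI. ZNF544 had 20.3, 17.9, 57.8, 17.2 and 17.4 FPKM in OCI, against 0.0923, 0, 0.0516, 0 and 0 FPKM in H929.

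**Figure D5:**
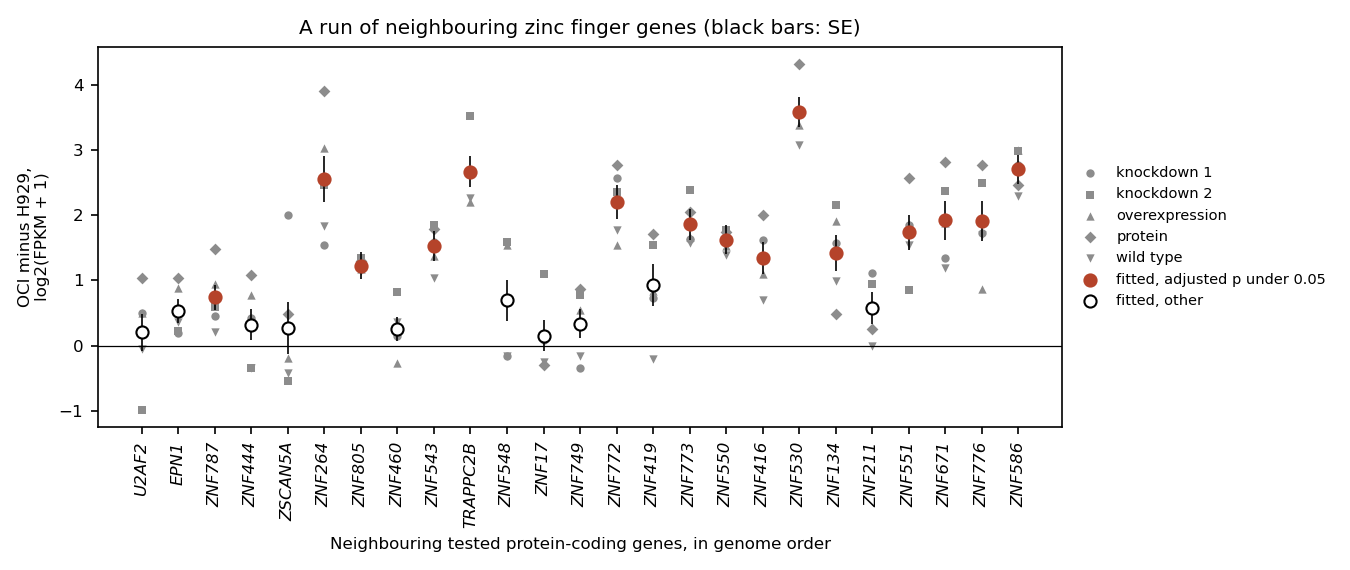
OCI minus H929 as log2(FPKM + 1) for 25 neighbouring tested protein-coding genes in genome order, with grey symbols for the 5 pairs, large symbols for the fitted difference and black bars for its SE. Filled symbols mark the 15 genes called higher, which are concentrated from ZNF264 onwards and interspersed with genes such as ZNF17 and ZNF749 near 0.

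Some promoters of this stretch share a sequence, shown here for 3 of the genes near 0 in H929. The 250 bases before the first RefSeq start (GRCh38.p14) lie at chr19:57599635-57599884 on the plus strand for ZNF530, and on the minus strand at chr19:57559864-57560113 for ZNF550 and chr19:57477567-57477816 for ZNF772. Capitals mark ACTACATTACC, the longest run of letters that the 3 windows share, which was then searched on both strands of all promoters.
ZNF530: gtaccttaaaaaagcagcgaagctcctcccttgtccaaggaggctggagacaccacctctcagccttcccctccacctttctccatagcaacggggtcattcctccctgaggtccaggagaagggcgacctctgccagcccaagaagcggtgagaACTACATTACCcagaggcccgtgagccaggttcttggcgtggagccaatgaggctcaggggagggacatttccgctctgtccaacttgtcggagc
ZNF550: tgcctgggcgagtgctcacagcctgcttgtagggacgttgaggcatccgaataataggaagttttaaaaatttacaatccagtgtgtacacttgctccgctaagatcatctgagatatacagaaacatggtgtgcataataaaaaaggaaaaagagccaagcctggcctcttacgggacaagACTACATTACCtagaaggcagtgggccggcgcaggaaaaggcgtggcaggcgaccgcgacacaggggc
ZNF772: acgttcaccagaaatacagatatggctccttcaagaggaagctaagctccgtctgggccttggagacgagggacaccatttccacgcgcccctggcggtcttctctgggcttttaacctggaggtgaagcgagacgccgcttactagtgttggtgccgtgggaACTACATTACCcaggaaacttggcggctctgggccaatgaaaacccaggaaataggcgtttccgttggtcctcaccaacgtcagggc
The motif occurs in 7 of the 24 promoters of the stretch that the table holds (29.2%). The 3 that define it are among the 7, so that share is partly fixed by their choice, and of the other 21 promoters 4 hold it (19%). It occurs in 6 of 410 ZNF promoters outside the stretch (1.46%) and in 18 of 27305 promoters in all (0.0659%). Of the 7 genes, ZNF530, ZNF550 and ZNF772 define the motif and were chosen as near 0 in H929, so their calls were fixed by the choice. Of the other 4, ZNF586 and ZNF416 were called higher in OCI, and ZNF17 and ZNF749 were not. In the whole stretch 15 of 25 genes were called higher. Whether the motif goes with the level was not tested. The 9 held ZNF genes of the stretch have 8 to 23 CG in these 250 bases, with a median of 14.

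Neighbours that were lower together in OCI were found as well. In the stretch of 25 from TMED10 to CEP128 the median difference was -0.99, 23 genes were below 0 and 16 were called lower, although none held. In that from TM2D1 to ANKRD13C the median was -0.78, 24 were below 0 and 11 were called lower. Of all 10316 such stretches, 1% had a median under -0.63 and 1% over 0.68. Copy number was not measured in these libraries.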

How the data were processed

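The authors deposited 1 table of FPKM values for 58229 genes. Per the submitters' processing notes, HISAT2 2.0, StringTie 1.3.0 and Bowtie 0.12.2 were used, in roles that are not given in the sources used here. The same notes name the build mm8, but the identifiers are human Ensembl identifiers, so no coordinate was taken from the table. Values of 0 are described as listed at 0, and no counts or counting intervals are given. Symbols were found for 41822 identifiers, and 1065 of 1068 entries in 37 gene lists were found. Near-identical copies and antisense genes are uncertain, because neither multiple mapping nor strand handling is given in the sources used here.

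For the comparison, log2(FPKM + 1) of 12872 genes (those averaging 1 FPKM or more over all libraries) was fitted in limma 3.58.1 (R 4.3.3) with line and manipulation as terms, leaving 5 residual degrees of freedom. Variances were moderated with a trend, and Benjamini-Hochberg adjustment of two-sided p-values ran over all tested genes. Alternatives changed the pseudocount, filter, scaling, moderation, model terms or libraries. The procedure was run on simulated data with independent normal noise and additive line differences, which lack the zeros and unequal depth of these libraries. The comparison, its gene lists and its rules were chosen with earlier results of these data known. Genes were named if they were among the 5 markers, among the 12 protein-coding genes per direction with the largest smallest pair difference, or among up to 3 per list and direction that were called with 1 sign in all pairs, and members of the zinc finger stretch were named after their values were seen. Promoter sequences are from RefSeq (GRCh38.p14) and gene order from GENCODE 29. Immunoglobulin variable genes and some other genes are not reported here.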

Additional observations from a re-analysis of the deposited data

Results flagged for a closer look

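Within the 5 libraries of a line, a single library lay far from the other 4 for several of the called genes named above or by the same rule (a gap to its neighbour above 0.71 of the range of log2 values, Dixon's test). About 1 in 20 such sets of values is picked out by chance, so no single case is read as a result. That rate does not cover sets in which the other 4 values are 0, where the gap is the whole range. The OCI protein library stood apart at 168 FPKM for IL2RG, 834 FPKM for APRT, 95.8 FPKM for MUS81, a nuclease of homologous recombination, 53.2 FPKM for TRAF2, a signalling adaptor, 0.798 FPKM for CTSW and, as the lowest, 106 FPKM for APEX1. It is 1 of the 2 OCI libraries with trace markers of other cell types. The OCI overexpression library had the highest ZNF544, 57.8 FPKM, and the lowest CD37, a tetraspanin of B cells, 0.245 FPKM.

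In H929 the protein library was the highest for IL2RG at 17.5 FPKM, for the mitochondrial enzyme SDHA at 245 FPKM, for the superoxide dismutase SOD1 at 263 FPKM, for IMPDH2 of purine synthesis at 267 FPKM and for ZNF805 at 1.13 FPKM. H929 wild type was the lowest for TEX19 at 4.78 FPKM and the highest for ANXA7 at 79.4 FPKM, H929 overexpression the lowest for COL6A3 at 16.1 FPKM, and H929 knockdown 1 the lowest for DSCR4 at 4.04 FPKM.

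Other cases were genes otherwise listed at 0 in H929, where any value above 0 in 1 library is picked out. They were H2BC13 at 0.492 FPKM and ZNF772 at 0.0212 FPKM in overexpression, NLRP2 at 0.122 FPKM and IFTAP at 0.159 FPKM in knockdown 2, delta globin HBD at 0.162 FPKM in wild type, BCAT1 at 0.0455 FPKM in knockdown 1 and RASSF4 at 0.0622 FPKM in the protein library.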

How the results depend on the processing

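All 143 named genes that were called kept their direction in each of the 24 alternative settings in which they could be tested, 73 of them kept the call in all, and 70 lost it in at least 1. Leaving out 1 library gave 490 to 998 genes higher, 276 to 714 lower, 315 to 336 held and 10 to 13 on in one line and off in the other. Outside the knockdowns this takes the whole pair out of the fitted line difference. Without the knockdown 1 and protein pairs there were 558 higher, 234 lower and 424 held, with fewer libraries to fit and fewer pairs to hold in. Without a filter 345 were lower, and after rescaling over protein-coding genes 1248 were. The count of held genes was 438 with a pseudocount of 0.1 and 144 with a filter of 5 FPKM, which tests fewer genes. The cause of the other changes was not tested.

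With the pairs as a replicate block, 993 genes were higher, 646 lower and 272 held. The labels do not say whether same-numbered knockdowns used the same reagent in both lines. The deviations of same-numbered libraries correlated at 0.0757, and 1 such value cannot decide it. Depth is known only relative to other libraries, so that for genes at or near 0 in H929 no lower limit of detection can be given.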
